A study of Sus scrofa with 12 samples.

Results

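The 77 genes described here encode enzymes and partner subunits that move nucleosomes or that write and erase marks on histones and DNA. They were taken by symbol from the 20666 genes with an mRNA in the RefSeq annotation of the pig genome (Sscrofa11.1, Annotation Release 106). The families held 8 CHD genes, 13 SMARC genes, 8 KMT genes, 9 SETD genes, 16 KDM genes, 8 KAT genes, 11 HDAC genes and 4 DNMT genes. The study split ejaculates of 3 mature Duroc boars into a fresh part (Fs) and a part that was frozen and thawed (Fts). Fs samples were snap-frozen for RNA at once, and Fts samples were cooled, diluted in an egg yolk and lactose extender and then in the same extender with glycerol, frozen in straws and thawed. In both groups the cells were washed and treated with a detergent meant to remove somatic cells. Methylated RNA immunoprecipitation sequencing (MeRIP-seq) gave 3 IP and 3 input libraries per group. An m6A peak is a stretch of mRNA where the IP reads of a sample exceed its input reads, and its score comes from the MACS peak caller. The score was taken here as 10 times -log10 of the p-value, so that a score of 20 would stand for p 0.01. That scale was not checked. Many listed peaks scored below 20 and would have p above 0.01 on it. The p-values given for scores are therefore uncertain, and scores serve here to rank peaks.

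Nucleosome remodellers of the CHD and SMARC families use ATP to slide, evict or exchange nucleosomes. KMT and SETD proteins methylate lysines of histones and KDM proteins remove that methylation. KAT proteins acetylate lysines, HDAC proteins take the acetyl group off, and DNMT proteins methylate cytosines in DNA. In the male germ line these enzymes act before and during the exchange of histones for protamines, after which sperm is nearly silent in transcription and keeps RNA made earlier. m6A is a methyl group on adenosine that is placed on mRNA, often within the letters GGAC, and it bears on splicing, translation and decay.

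At least 1 peak in at least 1 sample was found on 64 of the 77 genes (83.1%), against 11700 of all 20666 mRNA genes (56.6%). These genes are long, with a median mRNA length of 6040 nt against 2697.5 nt for all mRNA genes. The 13 genes without a peak were DNMT3L, HDAC6, HDAC10, HDAC11, KAT2A, KDM6A, KDM8, KMT5C, SETD6, SMARCA1, SMARCAD1, SMARCAL1 and SMARCD1. The files analysed here hold peaks and no read counts per gene, and mRNA levels were not used, so an mRNA that was scarce and an mRNA that was present without methylation both appear as a gene without a peak. For the same reason, more methylation per molecule, more RNA per cell and more cells of a kind that carries the mRNA cannot be told apart in these bulk samples.

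Strong short coding peaks of 5 genes are shown as examples of coding exons that were called in Fts samples only. They are written 5′ to 3′ on the transcript strand from RefSeq Sscrofa11.1, with GGAC in capitals. The KDM5B peak (chr10:24796424-24796546, minus strand) is exon 3 of 27, the CHD6 peak (chr17:44164326-44164475, minus strand) is exon 5 of 38, and the CHD5 peak (chr6:67077008-67077135, minus strand) is exon 2 of 41. The SMARCC2 peak (chr5:21569238-21569401, minus strand) is exon 25 of 29 and the SMARCC1 peak (chr13:30431233-30431494, minus strand) is exon 27 of 29.
KDM5B: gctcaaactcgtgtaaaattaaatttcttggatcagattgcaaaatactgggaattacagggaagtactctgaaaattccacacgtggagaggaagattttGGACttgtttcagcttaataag
CHD6: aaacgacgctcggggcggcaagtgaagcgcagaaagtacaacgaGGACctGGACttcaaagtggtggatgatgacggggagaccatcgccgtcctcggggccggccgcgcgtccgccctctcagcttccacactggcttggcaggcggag
CHD5: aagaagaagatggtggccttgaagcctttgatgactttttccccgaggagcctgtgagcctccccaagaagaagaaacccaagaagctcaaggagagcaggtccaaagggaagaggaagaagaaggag
SMARCC2: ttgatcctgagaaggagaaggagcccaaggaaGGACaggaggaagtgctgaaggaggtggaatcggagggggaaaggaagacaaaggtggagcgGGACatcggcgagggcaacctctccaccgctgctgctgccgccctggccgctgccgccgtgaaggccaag
SMARCC1: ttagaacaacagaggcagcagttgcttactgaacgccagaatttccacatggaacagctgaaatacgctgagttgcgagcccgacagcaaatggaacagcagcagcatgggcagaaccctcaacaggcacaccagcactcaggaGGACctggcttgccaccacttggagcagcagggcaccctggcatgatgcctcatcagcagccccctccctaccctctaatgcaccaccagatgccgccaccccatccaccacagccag
The KDM5B exon held 1 GGAC, which reads GGACT, and was called at a score of 1123.97 in Fts 2 and 2121.14 in Fts 3, the highest score on any of the 77 genes. The CHD6 exon held 2 GGAC and was called in all 3 Fts samples at 117.46, 230.96 and 14.07. The SMARCC2 exon also held 2 and was called in all 3 Fts samples at 86.2, 235.89 and 211.29. The SMARCC1 exon held 1 and was called in Fts 2 alone at 554.85. The CHD5 exon held none and was called in Fts 2 alone at 893.73. None of the 5 exons had a peak in an Fs sample.

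GGAC was searched on the transcript strand only. It was present in 65.0%, 54.8% and 57.7% of the enzyme peaks in Fs and in 61.0%, 58.0% and 61.8% in Fts, and the ranges overlapped. Over the peaks of all mRNA genes the means were 55.1% ± 1.01 in Fs and 57.0% ± 1.36 in Fts (SD, n = 3 in each group). Longer peaks hold more matches by length alone, and per kb of peak the enzyme mRNAs had 5.14 ± 0.0436 GGAC in Fs and 4.58 ± 0.304 in Fts. For all mRNA genes the same density was 4.21 ± 0.0529 and 4.26 ± 0.16.

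The enzyme mRNAs carried more peaks in Fts. The deposited lists held 60, 93 and 78 peaks on them in Fs 1 to 3 and 100, 169 and 144 in Fts 1 to 3, and the groups did not overlap. The means were 77.0 ± 16.5 and 137.7 ± 34.9 peaks (SD, n = 3), a ratio of 1.79, where the ratio was 1.21 for all mRNA genes and 2.6 for a list of other chromatin genes. As a share of every peak in the sample, the enzyme genes took 0.749%, 0.896% and 0.755% in Fs and 1.03%, 1.47% and 1.20% in Fts, again without overlap. The number of enzyme genes with a peak did overlap between the groups, at 35, 50 and 42 in Fs and 40, 51 and 51 in Fts. The ratio of means was 1.12 for genes with a peak and 1.79 for peaks, so most of the difference was more peaks per gene. Many deposited peaks end at an exon end, so that 1 methylated stretch across a junction can be listed as several peaks. Joined across junctions, the numbers were 59, 86 and 75 in Fs and 93, 133 and 124 in Fts, a ratio of 1.59. Of all joined peaks on mRNAs, the enzyme genes took 0.875%, 0.992% and 0.873% in Fs and 1.18%, 1.46% and 1.28% in Fts. The ratio of these mean shares was 1.43.

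**Figure D1:**
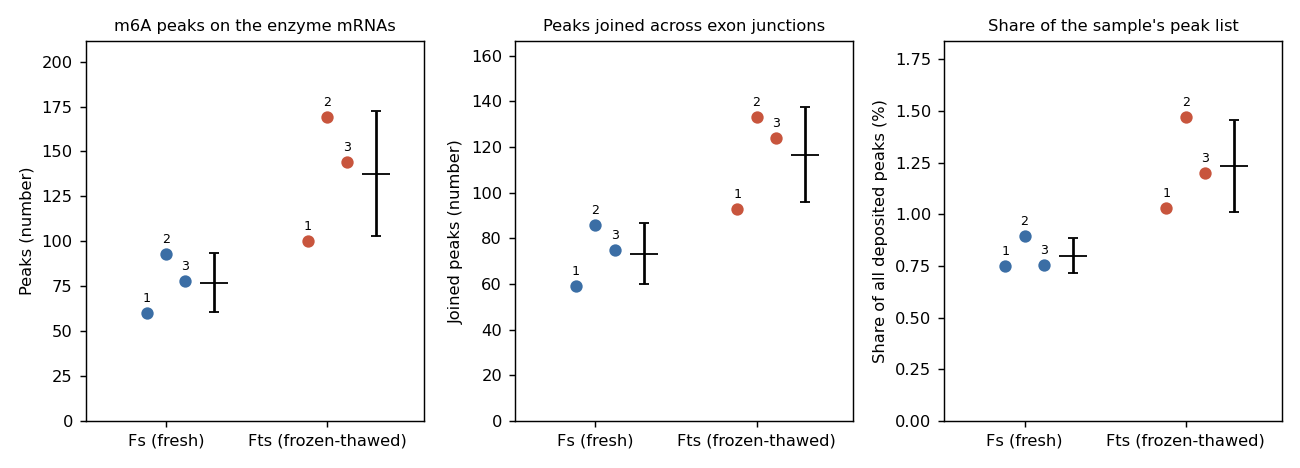
Peaks on the 77 enzyme genes in each IP sample as deposited (left, number), joined across exon junctions (middle, number) and as a percentage of all peaks of the sample (right). Points are samples with their replicate number, and the bar beside each group is the mean with its SD (n = 3); every Fts point lies above every Fs point, with 60 to 93 deposited peaks in Fs and 100 to 169 in Fts.

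More exon sequence was covered by peaks in Fts. The peaks covered 17217, 20465 and 18040 exon bases of the enzyme mRNAs in Fs and 45112, 68373 and 54495 in Fts, a ratio of 3.01 between the means, against 1.46 for all mRNA genes. Mean peak lengths were 357, 242 and 278 bp in Fs and 475, 423 and 396 bp in Fts, without overlap, but median lengths did overlap, at 196.5, 144 and 171.5 bp in Fs and 215.5, 184 and 185 bp in Fts. Peaks longer than 500 bp numbered 11, 10 and 12 in Fs and 27, 37 and 31 in Fts. The share of peaks that matched an annotated exon from end to end was 41.7% ± 5.77 in Fs and 65.1% ± 4.52 in Fts, and for all mRNA genes it was 39.5% ± 0.656 and 51.6% ± 1.74 (SD, n = 3).

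Gene by gene, a call was made where the peak numbers of the 3 Fs and the 3 Fts samples did not overlap, which is p = 0.1 in an exact two-sided permutation test and the smallest p that 3 against 3 samples allow. No gene can therefore pass a correction for the number of genes tested. Of the 64 genes with a peak, 14 had more peaks in Fts (21.9%), and over all 11700 mRNA genes with a peak 1051 did (8.98%). None of the 64 had fewer peaks in Fts, where 627 of all genes did (5.36%). The comparison with all genes was not matched for mRNA length or number of peaks, and their part in it was not tested. Leaving out 1 sample at a time can only add calls and never undo one, so it does not check the calls made. It gave 15 to 20 genes with more peaks and 0 to 2 with fewer, with no share over all genes to set beside them. The latter were KMT5A and SETD1A without Fs 1, KMT5B without Fts 1, HDAC5 without Fts 2 and HDAC3 without Fts 3. With peaks joined across junctions, 12 of the 64 had more in Fts, against 8.07% of all genes. Among peaks with a score of at least 50, which would be p 1e-05 on the scale taken, 5 of the 14 genes kept non-overlapping groups (CHD6, HDAC4, KDM5B, SETD2 and SMARCC1). They were 13.2% of the 38 enzyme genes with such a peak, close to the 12.3% of all 3801 mRNA genes with one. Taken as pairs of equal replicate number, 19 genes had more peaks in Fts in all 3 pairs, and the 14 called genes are among them by construction. No share over all genes stands beside this count. The mean was higher in Fts for 40 of the 64 genes, lower for 18 and equal for 6, with a median difference of 0.333 peaks against 0 over all genes. By family, the calls fell on 3 of 8 CHD genes with a peak, 2 of 9 SMARC, 2 of 7 KMT, 2 of 8 SETD, 2 of 14 KDM, 2 of 7 KAT, 1 of 8 HDAC and 0 of 3 DNMT genes.

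**Figure D2:**
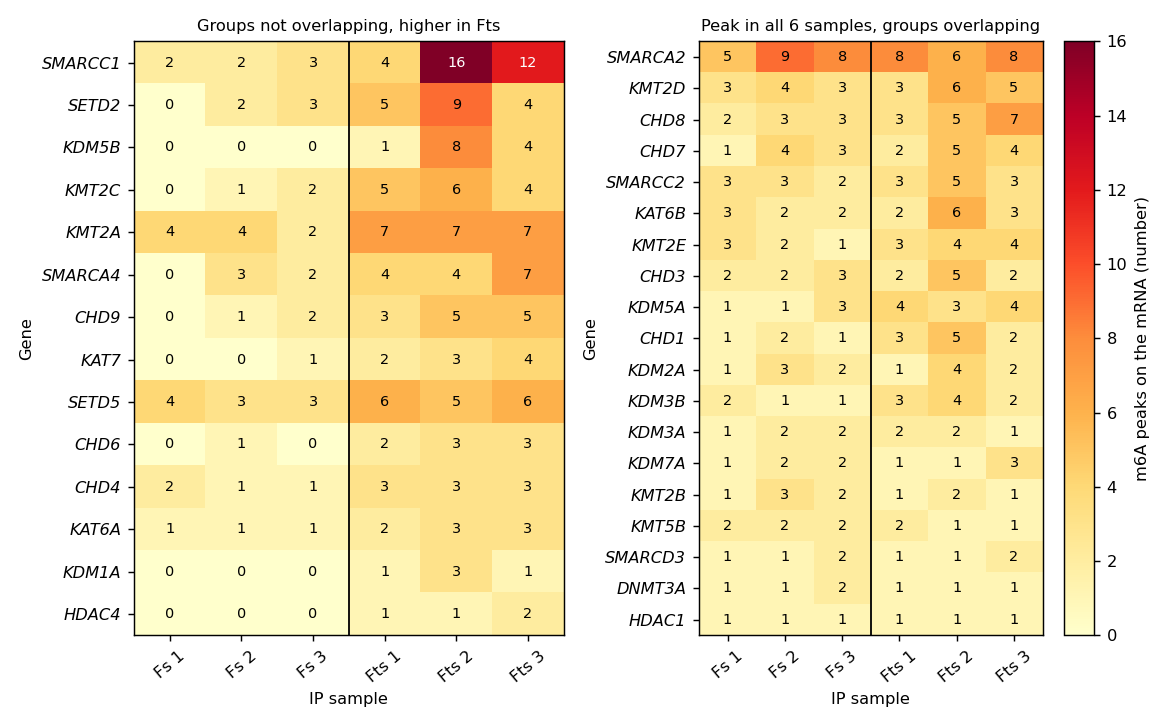
Number of m6A peaks on each mRNA (rows, gene symbols) in each IP sample (columns), for the 14 genes whose groups did not overlap (left) and the 19 other genes with a peak in all 6 samples (right). Colour and printed digits give the same number, from 0 to 16; the darkest cell is SMARCC1 in Fts 2.

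Among the remodellers, SMARCC1 (chr13:30409979-30576270, minus strand), a scaffold subunit of SWI/SNF complexes, had 2, 2 and 3 peaks in Fs and 4, 16 and 12 in Fts, the widest difference of means of the 77 genes. Fts 2 and Fts 3 were far above Fts 1, in which few exons were called. Most of that difference was neighbouring exons listed one by one, since joined peaks numbered 2, 2 and 3 in Fs and 4, 4 and 5 in Fts, still without overlap. SMARCA4 (chr2:69717175-69810301, plus strand), the ATPase also called BRG1, had 0, 3 and 2 peaks in Fs and 4, 4 and 7 in Fts. SMARCA2 (chr1:219624773-219815438, minus strand), the alternative ATPase BRM, carried 44 peaks over the 6 samples, the most of the 77 genes in number and, at 1.21 per kb of mRNA and sample, also per length. Its groups overlapped, with 5, 9 and 8 in Fs and 8, 6 and 8 in Fts. SMARCC2, the paralogue of SMARCC1, had 3, 3 and 2 peaks in Fs and 3, 5 and 3 in Fts, which overlapped. SMARCA5, the ISWI ATPase, had 0, 1 and 1 in Fs and 0, 4 and 5 in Fts and was likewise not called.

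The CHD family had peaks on all 8 genes and the mean was higher in Fts for 7 of them. CHD9 (chr6:31829870-32071975, minus strand) had 0, 1 and 2 peaks in Fs and 3, 5 and 5 in Fts. CHD6 (chr17:44048056-44265472, minus strand) had 0, 1 and 0 in Fs and 2, 3 and 3 in Fts. In CHD6, besides the exon printed above, a region of 521 bp in exon 3 was called at 254.99, 313.04 and 276.14 in the 3 Fts samples and in no Fs sample. The groups of both genes overlapped once peaks were joined, since neighbouring exons then counted once. CHD4 (chr5:64071627-64105212, plus strand), the ATPase of the NuRD deacetylase complex, had 2, 1 and 1 in Fs and 3, 3 and 3 in Fts. In Fts 3, 1 of these peaks, at a score of 5.78, overlapped annotated exons of CHD4 by only 12 bases. Without that peak, or with a score of at least 20, CHD4 was not called. CHD8 (2, 3 and 3 in Fs, and 3, 5 and 7 in Fts), CHD7 (1, 4 and 3, then 2, 5 and 4) and CHD1 (1, 2 and 1, then 3, 5 and 2) had a peak in all 6 samples and overlapping groups.

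Among the writers of lysine methylation, KMT2A (chr9:45743566-45828559, plus strand), the MLL1 methyltransferase of histone H3 lysine 4, had 4, 4 and 2 peaks in Fs and 7 in each Fts sample. KMT2C (chr18:4993213-5279668, plus strand), of the same group of enzymes, had 0, 1 and 2 in Fs and 5, 6 and 4 in Fts. Its Fts peaks included long coding exons: exons 38, 40 and 45 of 62, of 1884, 1826 and 1701 bp, were each called in the 3 Fts samples and in no Fs sample. KMT2D, the longest mRNA of the 77 at 21406 nt, had 3, 4 and 3 peaks in Fs and 3, 6 and 5 in Fts, and KMT2B went the other way without separation, with 1, 3 and 2 in Fs and 1, 2 and 1 in Fts. KMT2E had 3, 2 and 1 in Fs and 3, 4 and 4 in Fts. So within the KMT2 genes, KMT2A and KMT2C were called and the other members overlapped.

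SETD2 (chr13:29884708-29996285, minus strand), which trimethylates histone H3 at lysine 36, had 0, 2 and 3 peaks in Fs and 5, 9 and 4 in Fts. The strongest SETD2 peaks lay in the long exon 3, within a region of 4349 bp called at 5.3 and 6.93 in Fs 2 and Fs 3 and at 319.2, 454.64 and 148.13 in Fts 1 to 3. There the same exon was called in both groups, with a lower score in Fs. SETD5 (chr13:65759973-65851747, plus strand) had 4, 3 and 3 peaks in Fs and 6, 5 and 6 in Fts, and overlapped when joined. SETD1A had 1 peak in Fs 2 and in Fs 3 and none in Fts. SETD3, an actin histidine methyltransferase in spite of its family name, had 1 peak in Fs 2, 3 in Fts 2 and 1 in Fts 3, and reached a score of 634.77 in Fts 2.

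Of the erasers of methylation, KDM5B (chr10:24739115-24831537, minus strand), a demethylase of histone H3 lysine 4, had no peak in Fs and 1, 8 and 4 in Fts. Its Fts 1 peak, at 65.3 in exon 6, lay on an exon that neither of the other Fts samples shared. KDM1A (chr6:80903407-80971875, plus strand), or LSD1, had no peak in Fs and 1, 3 and 1 in Fts, at best scores of 57.89, 48.42 and 59.68. KDM5A and KDM3B had more peaks in Fts by their means (3.67 ± 0.577 against 1.67 ± 1.15, and 3.0 ± 1.0 against 1.33 ± 0.577; SD, n = 3) with overlapping groups. Joined peaks of KDM3B did not overlap, at 1 in each Fs sample and 3, 4 and 2 in Fts. KDM2A and KDM3A differed by at most 0.333 peaks between means. KDM4C reached 353.35 in Fs 3, but that peak of 1574 bp overlapped annotated exons of the gene by only 19 bases, so most of it lay off the mRNA as annotated.

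Of the acetyltransferases, KAT7 (chr12:25970966-26005006, plus strand), or HBO1, which acetylates histones H3 and H4, had 0, 0 and 1 peaks in Fs and 2, 3 and 4 in Fts. The Fts peaks on KAT7 had low scores, at best 5.36, 10.66 and 6.96, below the 46.55 of the lone Fs peak. KAT6A (chr17:11002818-11109974, minus strand) had a single peak in every Fs sample, and 2, 3 and 3 in Fts. In KAT6A a merged region of 1304 bp, its largest part on exon 18, was called at 17.34, 170.47 and 148.35 in Fts and not in Fs. Its paralogue KAT6B had 3, 2 and 2 peaks in Fs and 2, 6 and 3 in Fts, with high scores in every sample, from 225.89 to 339.3 in Fs and from 387.69 to 732.19 in Fts. KAT5, or TIP60, had 1 peak in each sample except Fts 3, which had none.

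Among the deacetylases, HDAC4 (chr15:138378237-138657266, minus strand), of class IIa, was the only HDAC gene called, with no peak in Fs and 1, 1 and 2 in Fts. Exon 5 of HDAC4 was called at 136.93, 181.99 and 76.19 in the 3 Fts samples. The mean of HDAC genes was higher in Fts for 3, lower for 4 and equal for 1, and HDAC peaks numbered 6, 7 and 3 in Fs and 3, 6 and 5 in Fts. HDAC3 had 1, 2 and 1 peaks in Fs and 0, 0 and 1 in Fts, with best scores of 14.93 to 23.82 in the Fs samples and 3.12 in Fts 3. HDAC2 had 1 peak, at a low score of 3.76 in Fts 2. Whether the HDAC genes differ from the other families was not tested.

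The DNA methyltransferases had few peaks, 17 over the 6 samples. DNMT1, which maintains methylation, had 0, 3 and 1 peaks in Fs and 1, 0 and 1 in Fts. DNMT3A and DNMT3B, which methylate new sites, had 1, 1 and 2 and 1, 0 and 1 in Fs, and 1, 1 and 1 and 0, 1 and 1 in Fts. None of the DNMT genes separated the groups by number.

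A peak in every sample was found on 24 of the 64 genes (37.5%), against 13.5% of all mRNA genes with a peak. The genes with most peaks among these were SMARCA2 (44), SMARCC1 (39), KMT2A (31), SETD5 (27), KMT2D (24), CHD8 (23), SMARCC2 (19), CHD7 (19), KAT6B (18) and KMT2E (17), totals that are not scaled by length. A gene can keep its number of peaks while the peaks move, so overlapping peaks of the 6 samples were merged into regions. The enzyme mRNAs held 297 regions, of which 125 (42.1%) were called in 1 sample alone, against 47.6% of the regions on all mRNA genes. Only 5 regions (1.68%) were called in all 6 samples, where the share for all mRNA genes was 3.24%. These were exon 7 of CHD1, exon 1 of CHD8 in the 5′UTR, the start codon of KDM2A, exon 27 of KMT2E and exon 11 of SMARCA2. Exon 11 of SMARCA2 had nearly the same scores in both groups, 39.58, 18.8 and 42.65 in Fs and 38.53, 16.67 and 39.42 in Fts.

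Regions called in all 3 Fts samples and in no Fs sample numbered 30 on 20 genes (10.1% of 297), against 6.78% of the regions on all mRNA genes. Of these 30, 29 lay in the coding region away from the start codon and 1, on KAT7, in the 3′UTR. They ran from 86 to 1884 bp and 8 were longer than 500 bp. Regions called in all 3 Fs samples and in no Fts sample numbered 9 on 9 genes (3.03%), against 3.65% for all mRNA genes. They ran from 39 to 393 bp. Of the 9, 3 lay at a start codon (HDAC1, KAT5 and SMARCC1), 3 on a non-coding first exon outside the longest coding transcript (CHD4, in 2 of 4 transcripts, DNMT3A, in 1 of 12, and KMT5B, in 2 of 8) and 3 within coding exons (CHD7, SETD5 and SMARCA2). For all mRNA genes, the coding region away from the start and stop codons held 77.8% of the 1777 regions of the Fts kind and 65.1% of the 957 of the Fs kind. Start codons held 139 and 96 of these regions, and exons off the longest coding transcript 33 and 60. With 30 and 9 regions on the enzyme mRNAs, the difference from all genes was not tested.

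Peaks on several genes lay in different places in the 2 groups, whether or not their number differed. HDAC1, the class I deacetylase found in NuRD and Sin3 complexes, had exactly 1 peak in every sample. In the 3 Fs samples it was on exon 1 at the start codon (chr6:88749426-88749768), at scores of 107.74, 187.06 and 115.24. In the 3 Fts samples it was on exon 12 of 14 (chr6:88783699-88784187), at 7.2, 38.26 and 19.48. The Fs region of 343 bp held 158 annotated exon bases of HDAC1 and the Fts region of 489 bp held 153. Most of each region thus lay off annotated exons. KAT5 had its Fs peaks at the start codon (chr2:6572193-6572470), at 5.03, 24.87 and 53.07, and its peaks in Fts 1 and Fts 2 at the stop codon, at 25.19 and 31.18. SMARCC1 had a start codon peak in the 3 Fs samples (chr13:30576056-30576448), at 23.24, 26.61 and 49.14, and none there in Fts. On CHD4 the first-exon region (chr5:64071757-64071864) scored 575.79, 483.47 and 577.82 in Fs, the top scores of any Fs peak on these genes, and was not called in Fts, where exon 24 scored 67.15, 130.97 and 181.53. SMARCA2 had its Fs-only region on exon 31, at low scores of 5.87, 3.15 and 5.27. A region of the 3 Fts samples only lay on exon 32, next to it, at 18.92, 177.11 and 95.84.

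**Figure D3:**
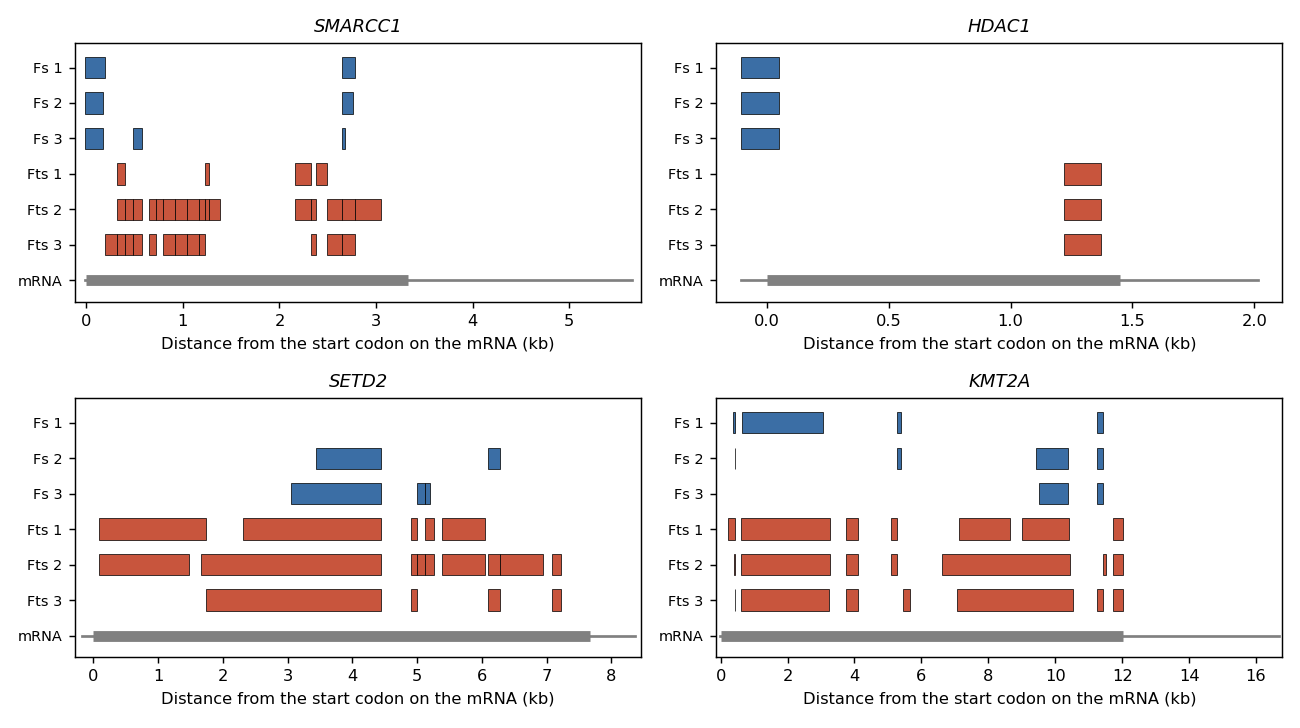
Peaks of each IP sample along the mRNAs of SMARCC1, HDAC1, SETD2 and KMT2A, as distance from the start codon in kb on the longest coding transcript. Bars are peaks (blue for Fs, red for Fts), and the grey line is the mRNA with the coding region thick; HDAC1 has its 3 Fs peaks at the start codon and its 3 Fts peaks in exon 12, and touching bars are peaks listed exon by exon.

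Over all 77 genes the same difference in place was seen. Peaks that overlapped the first exon of any transcript numbered 19, 19 and 21 in Fs and 5, 12 and 13 in Fts, so they were fewer in Fts although the peaks were more in all. They were 31.7%, 20.4% and 26.9% of the enzyme peaks in Fs and 5.0%, 7.1% and 9.03% in Fts. Over all mRNA genes the share was 23.1% ± 1.27 in Fs and 18.5% ± 0.551 in Fts, and the number of such peaks was about level (ratio 0.973, against 0.508 for the enzyme genes). A first-exon peak was found on 27 of the enzyme genes, in more Fs than Fts samples for 18, in more Fts samples for 4 and in the same number for 5. For all 4431 genes with a first-exon peak these shares were 44.2% and 41.3% in the order Fs, Fts. Of the 27 genes, 6 had one in all 3 Fs and no Fts sample (CHD4, DNMT3A, HDAC1, KAT5, KMT5B and SMARCC1), against 4.78% of the 4431 genes, and none had the reverse, against 4.83%. This measure was added after the values by region had been seen, and it has no test. Counted on the first exon of the longest coding transcript only, the share differed by -10.0 percentage points between the groups (Fts minus Fs), where it differed by -19.3 over the first exons of all transcripts.

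By position on the longest coding transcript, peaks within 100 nt of the start codon were 20.8%, 11.5% and 14.7% of the enzyme peaks in Fs and 4.04%, 4.22% and 4.96% in Fts. For all mRNA genes this share was 10.7% ± 0.785 and 9.52% ± 0.343. The remaining coding region held 69.8%, 78.2% and 76.5% in Fs and 89.9%, 87.3% and 87.9% in Fts, and for all mRNA genes 69.7% ± 0.776 and 74.1% ± 0.452. Coding sequence outside the codon classes makes up 60.3% of the length of the enzyme mRNAs and 45.0% of all mRNAs. The part of length in the gap between the lists was not tested. The 3′UTR held 3.88% ± 0.49 of the enzyme peaks in Fs and 3.5% ± 0.61 in Fts, with 24.8% of the length, and the stop codon class held 1.4% ± 1.23 and 1.61% ± 0.72 (SD, n = 3). Neither of these moved beyond the spread of the samples.

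**Figure D4:**
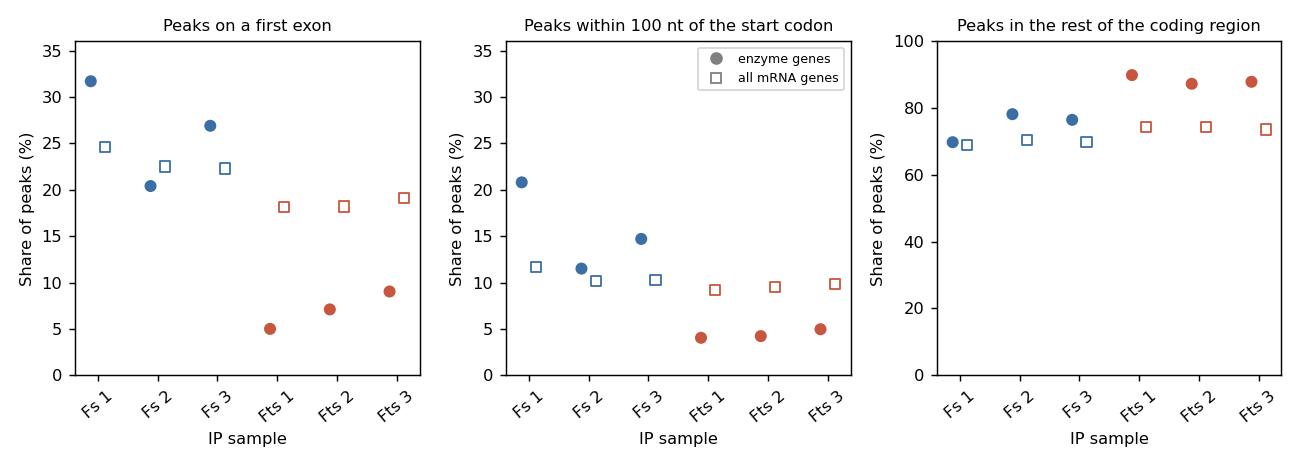
Share of peaks (%) in each IP sample that overlap a first exon (left), lie within 100 nt of the start codon (middle) or lie in the rest of the coding region (right). Filled circles are the 77 enzyme genes and open squares all mRNA genes, blue for Fs and red for Fts. On first exons the circles lie at 20.4 to 31.7% in Fs and 5.0 to 9.03% in Fts. The squares also fall, but less, from 22.3 to 24.6% in Fs to 18.1 to 19.1% in Fts.

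Median scores of the enzyme peaks overlapped between the groups, at 14.8, 8.98 and 15.9 in Fs and 18.0, 16.1 and 15.2 in Fts. For the peaks of all mRNA genes they did not overlap, at 11.8, 11.4 and 10.7 in Fs and 13.1, 16.2 and 13.4 in Fts. The genes with the 10 highest scores were KDM5B, CHD5, KAT6B, SETD3, CHD4, SMARCC1, SETD2, KDM4C, CHD6 and CHD3, and the top peak was in an Fts sample for all of these except CHD4 and KDM4C. CHD3 exon 3 was called at 3.22 in Fs 3 and at 149.68, 260.99 and 10.25 in Fts 1 to 3. The best scores of CHD3 in Fs, 42.37 to 137.53, lay on exon 39, which was called at 43.54 and 63.4 in Fts 1 and Fts 2.

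Other chromatin genes, a list of 84 with readers, further writers and complex partners, matched 81 annotated genes, and 72 of them had a peak. Their peaks numbered 51, 57 and 62 in Fs and 116, 173 and 153 in Fts, a ratio of 2.6 between means, where the 77 genes had 1.79. Of the 72, 20 had more peaks in Fts (27.8%) and 2 had fewer (2.78%), beside 21.9% and 0 among the 64 genes and 8.98% and 5.36% among all genes. The acetyltransferases EP300 (0 in Fs, 5, 9 and 5 in Fts) and CREBBP (0, 0 and 1 in Fs, 4, 3 and 4 in Fts) and the SWI/SNF subunit ARID1A (1, 0 and 1 in Fs, 5, 7 and 4 in Fts) were among the former. The sirtuin SIRT2 (1 in each Fs sample, none in Fts) and the methyltransferase SETDB2 (1, 3 and 1 in Fs, none in Fts) were the latter.

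Values of the whole lists bear on these results. The 6 lists held from 8015 peaks in Fs 1 upwards, Fts lists were longer by a ratio of 1.15 between means, and the sample with the fewest enzyme peaks in each group was replicate 1. Of 19 sperm markers 11 had a peak, and their summed peaks were 6 to 7 in Fs and 7 to 9 in Fts. ACR had 2 peaks in each Fs sample and 0 in Fts, ZPBP (1, 2 and 2) and SPATA18 (1 in each) had peaks in Fts alone, and SPACA1 had 1 in every sample, while PRM1, TNP1, ODF1, AKAP4, GAPDHS, TSSK6, OAZ3 and SMCP had none. Of the 6 epithelial markers only KRT8 was called, with no peak in Fs and 3, 4 and 2 in Fts. KRT18 had 0, 0 and 1 in Fs and 2, 1 and 1 in Fts, and CDH1 had 0, 1 and 1 in Fs and 0, 0 and 1 in Fts. The 6 markers summed to 0 to 2 peaks in Fs and 4 to 5 in Fts, with none on EPCAM, KRT5 or CLDN4. Leukocyte markers summed to 2 to 3 in Fs and 1 to 3 in Fts, with none on CD14 or LYZ. A peak is not a level of expression, and the part of other cells, list length or depth in the results was not tested.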

How the data were processed

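The authors trimmed reads with cutadapt (1.9.3), aligned them to the pig genome (susScr11, Sscrofa11.1) with Hisat2, called peaks for each IP sample against its own input with MACS and kept those on mRNAs. The authors deposited 1 peak list per IP sample, in which each peak has a score given by MACS, taken here as 10 times the -log10 of its p. A further deposited list holds the authors' own differential sites between the groups and was not used. The lists give no read numbers and sequencing depth was not used here, so no counting error is given, and precision rests on 3 samples per group.

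Peaks were placed on RefSeq mRNA exons of Sscrofa11.1 (Annotation Release 106) with at least 1 bp on the same strand. Peak names and ends fitted this build. Positions used the midpoint on the longest coding transcript, with codon classes 100 nt to each side. Labels gave group and replicate number, and did not say which boar a number stands for. The study's methods describe a paired design of Fs and Fts, so equal numbers were paired in an alternative. A gene was called where groups did not overlap (exact permutation test, two-sided). Sums over genes have no test. The genes named were all those called, up to 10 with most peaks among those with a peak in all 6 samples, those with the 10 highest scores, and 9 well-known genes, and any other gene named was chosen after its values were seen. The genes, families and marker lists were chosen with earlier results of these data known, and 1 gene that fits the symbol rule is not reported here. The code (Python 3.11.15, pandas 2.3.3, numpy 2.4.6, scipy 1.17.1) was tested on simulated data. Alternatives covered score minimums, joined peaks, overlap, equal list lengths, transcript choice, strand, replicates and pairing.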

Additional observations from a re-analysis of the deposited data

How the results depend on the processing

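Over the 8 results 106 alternative values were computed, of which 88 stayed within the replicate SD or within 1.5 times the count and 18 moved. A reversal of direction was looked for only in the differences of means, not in the gene counts, and 0 reversed. Pairing by replicate number cannot change a difference of means, so those values stayed the same by construction. Alternatives on first exons and covered bases were chosen after seeing the data. Differences are Fts minus Fs. With a score of at least 20, the CDS share of enzyme peaks differed by 22.6 points (13.6 in the report), the first-exon share by -33.9 points (-19.3) and covered exon bases by 28630 (37419), and 9 genes had a peak in all 6 samples (24). With a score of at least 50, peaks differed by 20.3 (60.7), the CDS share by 40.4 points, the first-exon share by -50.1 points and covered bases by 19891. At that score 5 genes had more peaks in Fts (14), 1 had fewer (0, HDAC1) and 5 had a peak in all 6 samples. Of the enzyme genes with such a peak, 13.2% had more and 2.63% had fewer. Over all mRNA genes with such a peak the shares were 12.3% and 4.66%. With equally long lists, 1 gene had fewer peaks in Fts (HDAC3). By covered exon bases 1 gene had less in Fts (HDAC1), at 158 bases in each Fs sample and 153 in each Fts sample. For these counts, and for those of genes with a peak in all 6 samples at either score minimum, no share over all genes was computed. On the first exon of the longest coding transcript the first-exon share differed by -10.0 points. Leaving out 1 sample at a time, which can only add calls, gave 0 to 2 genes with fewer peaks. The cause of these moves was not tested, beyond there being fewer peaks or samples.

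Samples with the same number did not deviate together (r = -0.001, -0.017 and 0.004 across genes), and not every sample correlated best with its own number. With the number as a replicate block, 19 genes had more peaks in Fts in all 3 pairs and 0 had fewer, at the smallest exact sign-flip p of 0.25. The 14 called genes are among the 19 by construction, and no share over all genes was set beside this count.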
